A study of Mus musculus with 24 samples.

Results

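10 protein-coding genes on both sides of Tob1 on mouse chromosome 11 are described here, namely Utp18, Spag9, Abcc3, Med1, Rapgefl1, Wipf2, Igfbp4, Smarce1, Tubg2 and Plekhh3. They were selected on the difference in level between Tob-KO and WT hippocampi over all time points in these same counts, among genes within 10 Mb of Tob1. All 10 members were among the 19500 genes tested, out of 47593 in the count table, and 345 tested genes lay within 10 Mb of Tob1 with Tob1 left out. The average difference between genotypes is therefore what selected these genes and is given as a description, without a test. Size, direction and constancy over the time points are described against the distance from Tob1.

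The libraries were made from poly(A) RNA of hippocampi of male mice aged 8 to 12 weeks, labelled C57BL/6J in both genotypes. WT and Tob-KO mice were either naive, that is not fear conditioned, or were sampled after contextual fear conditioning, in which foot shocks were given in a chamber, each at the end of a tone. Sampling was at 15 min, at 1 h and at 3 h. Each of the 8 groups had 3 biological replicates, 24 libraries in all, with 28847989 to 41595972 counts per library (median 31169386). Tob-KO mice are a constitutive line, altered in every tissue. How they were made is described elsewhere, and neither the cell line used for targeting nor the number of backcrosses of this line is given in the sources used here.

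Tob1 encodes TOB, an antiproliferative protein that recruits the CCR4-NOT deadenylase to messenger RNAs. Genes on a chromosome are inherited together more often the closer they lie, and backcrossing shortens the stretch that travels with a selected locus only gradually. An altered locus can also affect transcription of its neighbours. An effect of the altered Tob1 gene and a difference in the DNA linked to it cannot be told apart in this design, since both would go with the genotype label.

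Reads of the targeted gene were more abundant, not less, in the libraries labelled Tob-KO. Tob1 (ENSMUSG00000037573.5, forward strand, chr11:94211454-94215495 of GRCm38) was measured at 33.9 to 44.5 CPM (reads of a gene scaled to a common library size after TMM normalization) in WT. The libraries labelled Tob-KO held 52.1 to 68.3 CPM. The difference was 0.56 ± 0.04 on the log2 scale (SE, n = 12 against 12 libraries), and its adjusted p was 1.17e-09 in edgeR's quasi-likelihood fit (Benjamini-Hochberg). All libraries with that label were above all WT libraries. Counts were made over the whole gene, so they do not show whether reads came from a part that was removed. The direction of every difference below rests on the labels as deposited.

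Around the start sites, the stretches upstream of the members with the clearest differences are shown because they give the immediate neighbourhood in which each transcript starts. Sequences are those of the C57BL/6J reference in RefSeq (GRCm38.p6), not of the mice studied, and are written 5′ to 3′ on the gene's own strand up to the base before the RefSeq start. Utp18 and Mbtd1 start back to back, with 85 bp between them (chr11:93885767-93885851, reverse strand). The 100 bases before Igfbp4 (chr11:99041144-99041243) and Tubg2 (chr11:101155784-101155883) are on the forward strand. Capitals mark matches on either strand to 3 short motifs that transcription factors are known to recognise. GGGCGG is the GC box. CACGTG is an E-box. TATAAA is the core of the TATA box.
Utp18: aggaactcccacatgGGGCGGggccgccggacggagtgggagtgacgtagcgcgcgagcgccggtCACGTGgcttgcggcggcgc
Igfbp4: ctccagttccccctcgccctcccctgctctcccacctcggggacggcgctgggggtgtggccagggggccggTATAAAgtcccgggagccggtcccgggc
Tubg2: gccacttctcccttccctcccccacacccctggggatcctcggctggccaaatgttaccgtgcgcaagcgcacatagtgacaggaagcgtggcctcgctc
The Utp18 stretch holds a GC box and an E-box, the Igfbp4 stretch a TATA box near its end, and the Tubg2 stretch none of these. RefSeq's promoter table listed 8 of the 10 members, and the 250 bases before the start were searched on both strands. GGGCGG was found in 6 of 8 (75.0%) against 32.7% of 32851 promoters, CCAAT in 4 of 8 against 33.8%, and CACGTG in 2 (25.0%) against 6.02%. TATAAA was found in 1 (12.5%) against 12.4%, and TGACGTCA, the cyclic AMP response element, in 0 against 1.55%. The members were searched at their first listed start, whereas the comparison was with all listed promoters, not chosen for expression in hippocampus. The shares are therefore not like for like. A match is a description of the letters in the window and not evidence of a bound site.

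Over all time points 6 members were higher and 4 were lower in the libraries labelled Tob-KO. Of all tested genes, 0.462% (90 of 19500) passed a false discovery rate (FDR) of 0.05 in this comparison, 0.287% higher and 0.174% lower. The rule used this contrast, so all members pass by choice and nothing is read from that count. The median absolute log2 fold change was 0.20 for the members, 0.07 for the other tested genes within 10 Mb and 0.06 for all genes tested. Log2 fold changes below are of libraries labelled Tob-KO relative to WT.

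**Figure D1:**
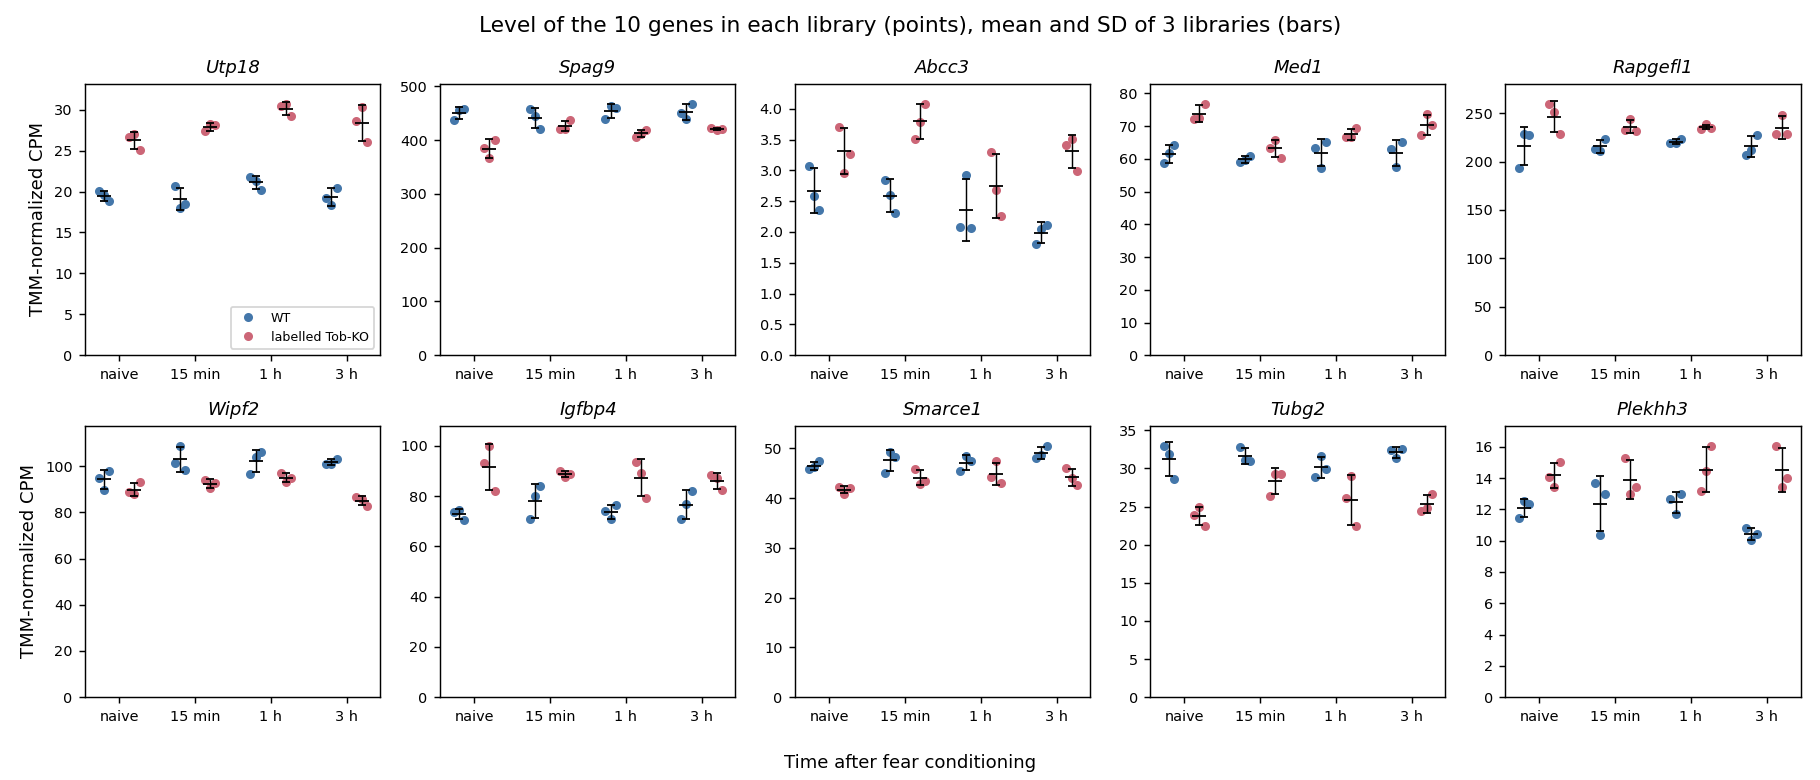
TMM-normalized CPM (vertical axis, from 0) of each of the 10 genes in each library, by time after fear conditioning (horizontal axis), for WT (blue) and libraries labelled Tob-KO (red). Points are libraries and bars the mean and SD of 3. Utp18 was separated at every time point, with 18.0 to 21.8 CPM in WT and 25.1 to 30.7 CPM in the other genotype, whereas Abcc3 overlapped in naive mice and at 1 h.

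3 members flank Tob1 closely. Utp18 (ENSMUSG00000054079.12, reverse strand, chr11:93859243-93885766), a component of the small-subunit processome that matures 18S ribosomal RNA, lies 0.326 Mb from Tob1 at lower coordinates. It had the largest difference of the 10. Its 12 WT libraries ranged from 18.0 to 21.8 CPM with a median of 19.8, and the 12 libraries labelled Tob-KO from 25.1 to 30.7 with a median of 28.2. The genotypes did not overlap, and the means were 19.7 ± 1.21 and 28.2 ± 1.79 CPM (SD), 42.4% more and a log2 fold change of 0.51 ± 0.03 (SE). In naive mice the values were 20.1, 19.6 and 18.8 CPM in WT and 26.7, 27.0 and 25.1 CPM in libraries labelled Tob-KO. At 3 h they were 19.2, 18.3 and 20.5 CPM and 28.7, 30.3 and 26.1 CPM. The gap between the genotypes was thus present before conditioning and was of similar size afterwards.

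Spag9 (chr11:93996091-94126085, forward strand), which encodes the scaffold JIP4 that links JNK signalling to motor proteins, lies closest to Tob1, 0.0854 Mb away at lower coordinates. It went the other way. WT libraries held 421 to 468 CPM (median 453) and libraries labelled Tob-KO 367 to 438 CPM (median 419). The mean was 450 ± 13.6 against 411 ± 18.9 CPM, a log2 fold change of -0.13 ± 0.02. The ranges overlapped, and the 3 lowest values, 386, 367 and 400 CPM, were those of the naive libraries labelled Tob-KO.

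Abcc3 (chr11:94343295-94392997, reverse strand), an efflux pump for conjugated organic anions, lies 0.128 Mb away at higher coordinates. It was the least abundant member, at 0.421 CPM per kb of exon in WT against 40.1 for Spag9, and its counts were 54 to 169 per library. WT libraries ranged from 1.81 to 3.08 CPM (median 2.33) and libraries labelled Tob-KO from 2.26 to 4.08 CPM (median 3.36). The means of 2.40 ± 0.404 and 3.29 ± 0.503 CPM differed by 0.45 ± 0.09 on the log2 scale, the widest standard error of the 10. At 3 h the WT values of 1.81, 2.05 and 2.12 CPM lay below 3.41, 3.51 and 3.00 CPM, while at 1 h the values of 2.08, 2.93 and 2.06 CPM overlapped 3.30, 2.68 and 2.26 CPM.

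5 members lie between 3.94 and 4.99 Mb from Tob1 at higher coordinates. Med1 (chr11:98152154-98193293, reverse strand) is the Mediator subunit that binds nuclear receptors. It ranged from 57.3 to 65.2 CPM in WT and from 60.3 to 76.8 CPM in libraries labelled Tob-KO, 0.16 ± 0.03 higher on the log2 scale. The only libraries labelled Tob-KO within the WT range were those at 15 min with 63.4 and 60.3 CPM, and the naive ones lay well above WT at 72.1, 72.6 and 76.8 CPM.

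Rapgefl1 (chr11:98836785-98853697, forward strand), a protein related to exchange factors for Rap GTPases, was among the more abundant members, at 38.2 CPM per kb in WT. WT libraries held 194 to 228.039 CPM and libraries labelled Tob-KO 228.045 to 260 CPM, so the genotypes touched without overlapping. Its log2 fold change was 0.13 ± 0.03, and it no longer passed the FDR when any 1 of 4 libraries was left out. Wipf2 (chr11:98863638-98905040, forward strand), a WIP family protein that acts with N-WASP on actin, begins 9940 bp after it. It differed in the opposite direction, with 100 ± 5.11 CPM in WT and 90.6 ± 4.30 CPM in libraries labelled Tob-KO, a log2 fold change of -0.15 ± 0.03. Neighbouring members transcribed from the same strand thus differed in sign.

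Igfbp4 (chr11:99041244-99054392, forward strand) encodes a secreted protein that binds insulin-like growth factors. It was at 70.6 to 83.8 CPM (median 74.2) in WT and 79.3 to 100 CPM (median 88.5) in libraries labelled Tob-KO. Its log2 fold change was 0.23 ± 0.04, and 3 against 3 libraries did not overlap at any of the 4 time points. Smarce1 (chr11:99209047-99231017, reverse strand), a subunit of the BAF chromatin remodelling complexes, had the smallest difference of the 10. Its mean was 47.6 ± 1.64 CPM in WT and 43.7 ± 1.89 CPM in libraries labelled Tob-KO, a log2 fold change of -0.12 ± 0.02. Of the 150-base windows of its transcripts, 6.54% also occur in Gm8494 or Smarce1-ps1, so a small share of its reads may be split between copies.

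The last pair, Tubg2 and Plekhh3, lies 6.94 and 6.95 Mb from Tob1, end to end with 891 bp between them. Tubg2 (chr11:101155907-101161787, forward strand) encodes the second gamma-tubulin, which is most abundant in brain and nucleates microtubules. It was at 28.7 to 33.0 CPM (median 31.5) in WT and at 22.5 to 29.3 CPM (median 25.5) in libraries labelled Tob-KO, a log2 fold change of -0.28 ± 0.04. The naive values were 33.0, 32.0 and 28.7 CPM against 23.9, 24.9 and 22.5 CPM, and those at 15 min were 32.9, 31.0 and 31.0 CPM against 26.4, 29.3 and 29.3 CPM. The genotypes were farthest apart in naive mice and closest at 15 min.

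Tubg1, the other gamma-tubulin gene, 29487 bp before Tubg2, was at 28.5 ± 1.17 CPM in WT and 28.6 ± 1.61 CPM in the other genotype. They differed by 0.003 ± 0.03 on the log2 scale (adjusted p = 0.980, edgeR quasi-likelihood test with Benjamini-Hochberg adjustment). Only 0.935% of the 150-base windows of Tubg2 occur in Tubg1. Plekhh3 (chr11:101162679-101171351, reverse strand) encodes a protein with pleckstrin homology and FERM domains. It was at 10.1 to 13.7 CPM in WT and 13.0 to 16.1 CPM in libraries labelled Tob-KO, a log2 fold change of 0.27 ± 0.05. It shares 233 bp of exon with Cntnap1 on the opposite strand, which was far more abundant at 307 and 318 CPM. The strand setting of the counting is not given in the sources used here, so reads of Cntnap1 in the shared part may be counted for Plekhh3.

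Size did not fall with distance over the 10. Spearman's rho between distance from Tob1 and absolute log2 fold change was -0.018 across the 10 genes, which are not independent replicates. With Utp18 and Abcc3 left out, rho was 0.55 over 8 genes. Absolute log2 fold change had a rho of -0.75 with mean CPM over the 10. These values leave out the 6 other called genes within 10 Mb, described below. Among those, A830036E02Rik (-3.42 ± 0.48), Krt12 (-2.14 ± 0.28) and Gm11940 (2.12 ± 0.15) lie at 5.17 to 5.20 Mb. The rule admits a small difference only where its error is small, which limits what such a relation can show. Both signs occurred on both sides of Tob1, with 1 higher and 1 lower member at lower coordinates and 5 higher and 3 lower members at higher coordinates.

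**Figure D2:**
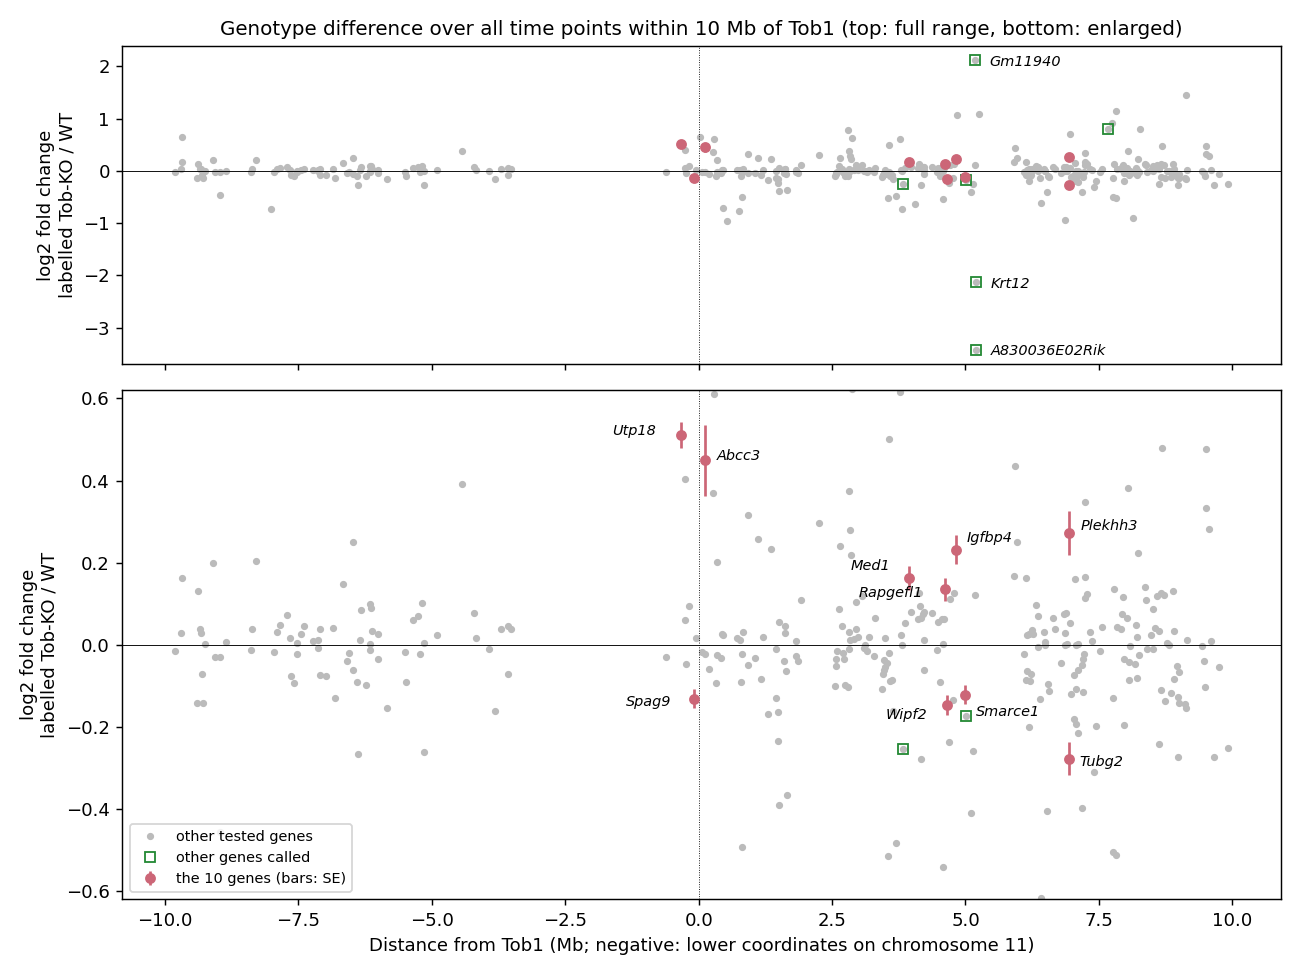
Log2 fold change over all time points (vertical axis) against distance from Tob1 in Mb (horizontal axis) for the 345 tested genes within 10 Mb, in full range above and enlarged below. Red points with SE bars are the 10 described genes, green squares the other 6 that passed the FDR and grey points the rest. Called genes lie between -0.326 and 7.66 Mb, and none of the 76 genes at lower coordinates than Utp18 was called by edgeR (2 were by DESeq2).

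The position of the differing genes was uneven. Within 10 Mb of Tob1, 16 of 345 tested genes passed the FDR (4.64%), 8 higher and 8 lower, against 6 of 1112 (0.540%) on the rest of chromosome 11 and 65 of 17176 (0.378%) on other chromosomes. Over 19 other chromosomes, the autosomes and the X, the share ran from 0.149% to 0.698%. The mitochondrial genome, left out of that range, had 2 of 22 tested genes called (9.09%). No stretch of 20 Mb on another chromosome held more than 4 called genes. All 16 lay between Utp18 and Meox1, a span of 8.04 Mb with 204 tested genes. Within it the called genes were not spread evenly: 2 of 7 between Utp18 and Tob1, 1 of 45 within 2 Mb at higher coordinates, and 8 of 38 (21.1%) between 4 and 6 Mb. None of the 90 genes between Abcc3 and Stac2 was called by edgeR's quasi-likelihood test, where 17 (18.9%) had an unadjusted p under 0.05, beside 13.3% of all tested genes. DESeq2 called 3 of the 90, and 292 of the 19499 tested genes other than Tob1. Of the 76 genes within 10 Mb at lower coordinates than Utp18 none was called (8 or 10.5% unadjusted, 2 by DESeq2), nor any of 65 at higher coordinates than Meox1 (18 or 27.7% unadjusted, 6 by DESeq2). DESeq2 called 29 genes within 10 Mb, 21 of them between Utp18 and Meox1, so the edges of the span depend on the tool. These shares describe the stretch from which the members were chosen and carry no test.

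**Figure D3:**
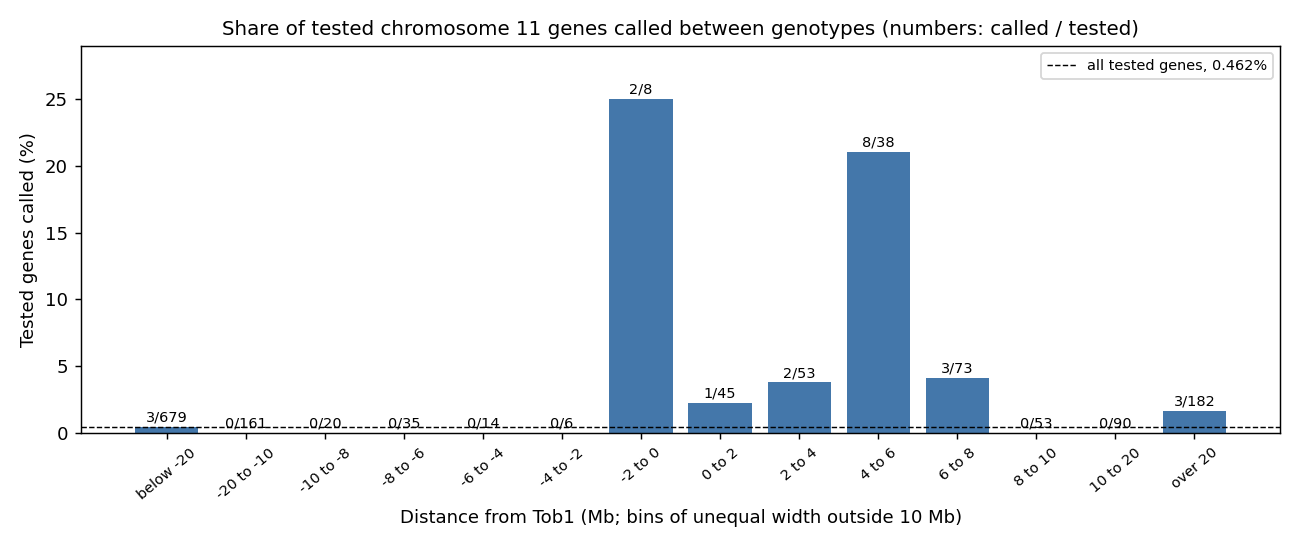
Percentage of tested chromosome 11 genes that passed the FDR (bars) by distance from Tob1 in Mb, with numbers called and tested above each bar and the share of all tested genes, 0.462%, as a dashed line. The bars at -2 to 0 Mb (25.0%, 2 of 8 genes) and 4 to 6 Mb (21.1%, 8 of 38 genes) stand above the others.

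Of 15 tested genes that adjoin a member and are not members, 1 was called (Krt222), beside 4.64% of tested genes within 10 Mb. Their median absolute log2 fold change was 0.06, and the highest log2 fold change was 1.07 ± 0.41 for Tns4, at 0.379 and 0.788 CPM. Krt222, Tns4, Casc3, Cdk12 and Fbxl20 were under 0.05 before adjustment (edgeR quasi-likelihood test), as were 13.3% of all tested genes. With so few genes these counts are a description. Mbtd1, which starts 85 bp from Utp18, was at 28.0 and 29.2 CPM in the 2 genotypes with a log2 fold change of 0.06 ± 0.03. Of the 5 nearest tested genes on each side of Tob1, only Spag9 and Abcc3 were called over all time points. Nme1 (-0.05 ± 0.04), Luc7l3 (-0.02 ± 0.05), Ankrd40 (-0.02 ± 0.03) and Cacna1g (-0.06 ± 0.05) had log2 fold changes near 0. Among genes counted at low CPM, Nme2 (0.40 ± 0.20, 6 to 23 reads per library), Wfikkn2 (0.64 ± 0.31), Gm11518 (0.09 ± 0.39) and B230206L02Rik (0.02 ± 0.15) had wide errors. At single time points Wfikkn2 was called at 15 min with the study's settings, with overlapping libraries (1.24 ± 0.31, adjusted p = 0.0376, edgeR exact test). Nme2 did not overlap in naive mice or at 1 h but was not called.

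6 other genes of the stretch passed the FDR and were not among the 10. Stac2, an adaptor of voltage-gated calcium channels, had a log2 fold change of -0.25 ± 0.05. Meox1, a homeobox factor, had 0.80 ± 0.17 at a low level of 0.67 and 1.17 CPM. Krt222 (-0.17 ± 0.04, adjusted p = 0.0452) was the last gene inside the threshold and G6pc3 (-0.19 ± 0.05, adjusted p = 0.0511) the first outside it, both from the edgeR quasi-likelihood test. The remaining 3 lie at 5.17 to 5.20 Mb, between Smarce1 and Tubg2, and had far larger differences than any member.

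Gm11940, an antisense transcript that shares 146 bp of exon with Krt10, was at 0.214 to 0.664 CPM in WT and 1.01 to 2.59 CPM in libraries labelled Tob-KO (log2 fold change 2.12 ± 0.15). Krt12, a keratin of corneal epithelium, was at 0.966 to 3.29 and 0.0982 to 1.86 CPM (-2.14 ± 0.28). A830036E02Rik, antisense to Krt12 and sharing 1007 bp of exon with it, was at 13.1 to 29.2 CPM in WT. In libraries labelled Tob-KO it was at 0.131, 0.157 and 0.295 CPM in naive mice and 7.89, 7.77 and 5.77 CPM at 15 min. It was at 5.44, 0.209 and 0.266 CPM at 1 h and 1.16, 0.683 and 0.143 CPM at 3 h. All 3 libraries at 15 min and 1 at 1 h thus stood apart from the other libraries with that label, while remaining below WT. The exons of A830036E02Rik cover 6039 bp and those of Krt12 1852 bp, and without knowledge of strand in the counting only reads of the shared part cannot be told apart.

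**Figure D4:**
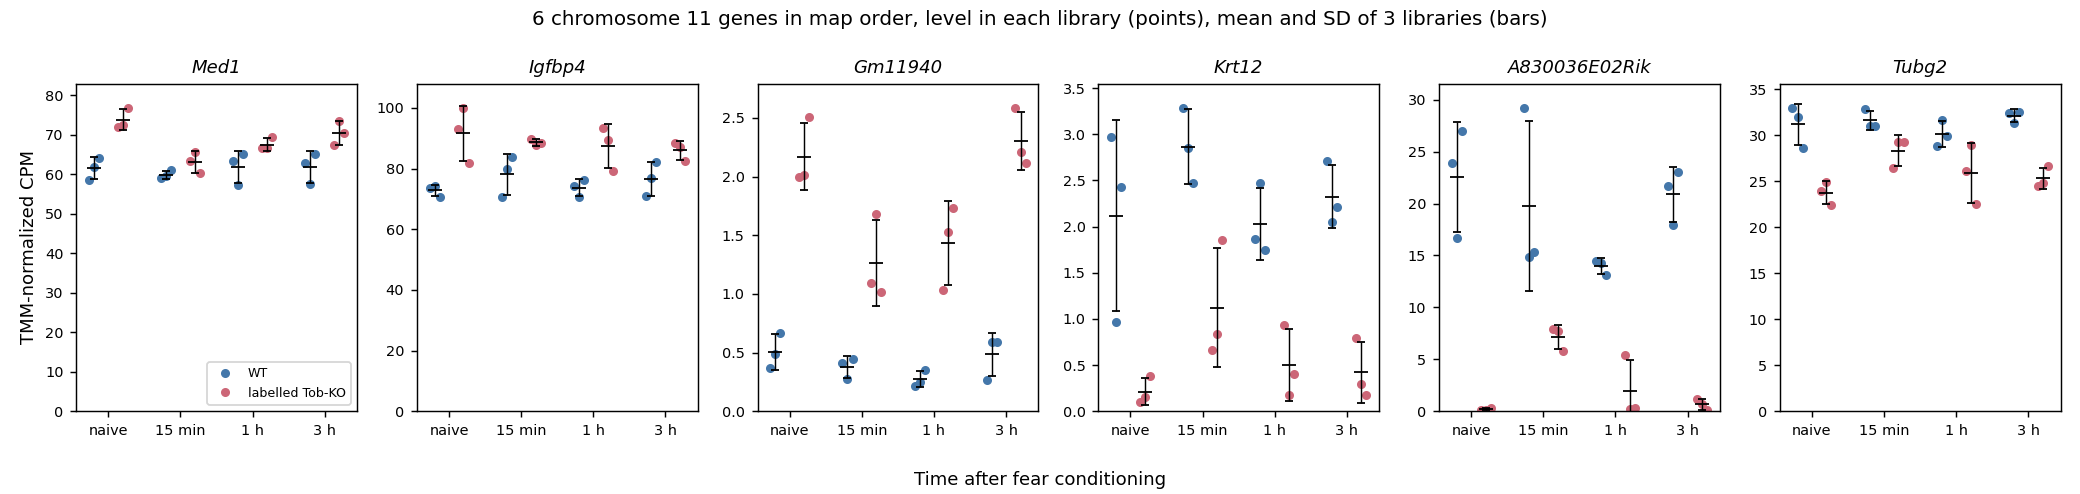
TMM-normalized CPM (vertical axes, from 0) of Med1, Igfbp4, Gm11940, Krt12, A830036E02Rik and Tubg2, in map order, by time after fear conditioning, for WT (blue) and libraries labelled Tob-KO (red), with each library as a point and the mean and SD of 3 as bars. A830036E02Rik in libraries labelled Tob-KO was between 5.77 and 7.89 CPM at 15 min and between 0.131 and 0.295 CPM in naive mice.

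The members' averages were also computed without the 6 libraries at 15 min, an alternative chosen after the data were seen. All members kept their direction. With these fewer libraries 6 of 10 passed the FDR, and 25 genes of the whole table did. Abcc3, Rapgefl1, Wipf2 and Smarce1 no longer passed, although their log2 fold changes were about as large, at 0.41, 0.14, -0.14 and -0.12. Those of the others were 0.50 for Utp18, -0.32 for Tubg2, 0.31 for Plekhh3, 0.25 for Igfbp4, 0.19 for Med1 and -0.16 for Spag9. Without the 1 h library labelled Tob-KO replicate 1, all 10 passed. The libraries left in these fits also took part in selecting the members, so nothing is read from the counts that passed.

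The direction of each member held at every time point. All 40 of 40 member and time point combinations had the sign of the average, and in 29 the 3 libraries of each genotype did not overlap. By time point the members that did not overlap numbered 8 in naive mice, 6 at 15 min, 6 at 1 h and 9 at 3 h, where 11.4%, 13.5%, 11.5% and 12.2% of all tested genes did not overlap. At 12 against 12 libraries, Utp18 and Rapgefl1 did not overlap, as did 0.0308% of all tested genes. The time points make up the contrast that the rule used, so nothing is read from these counts. With the settings of the study (edgeR's exact test, FDR of 0.05 and a fold change of at least 2) no member was called at any time point, while 0.0218%, 0.555%, 0.033% and 0.0274% of tested genes were. No member's difference reached that fold at any time point, the largest being 0.73 on the log2 scale for Abcc3 at 3 h. At any fold change 0, 1, 1 and 2 members passed the FDR, beside 0.0381%, 0.746%, 0.121% and 0.0657% of genes.

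**Figure D5:**
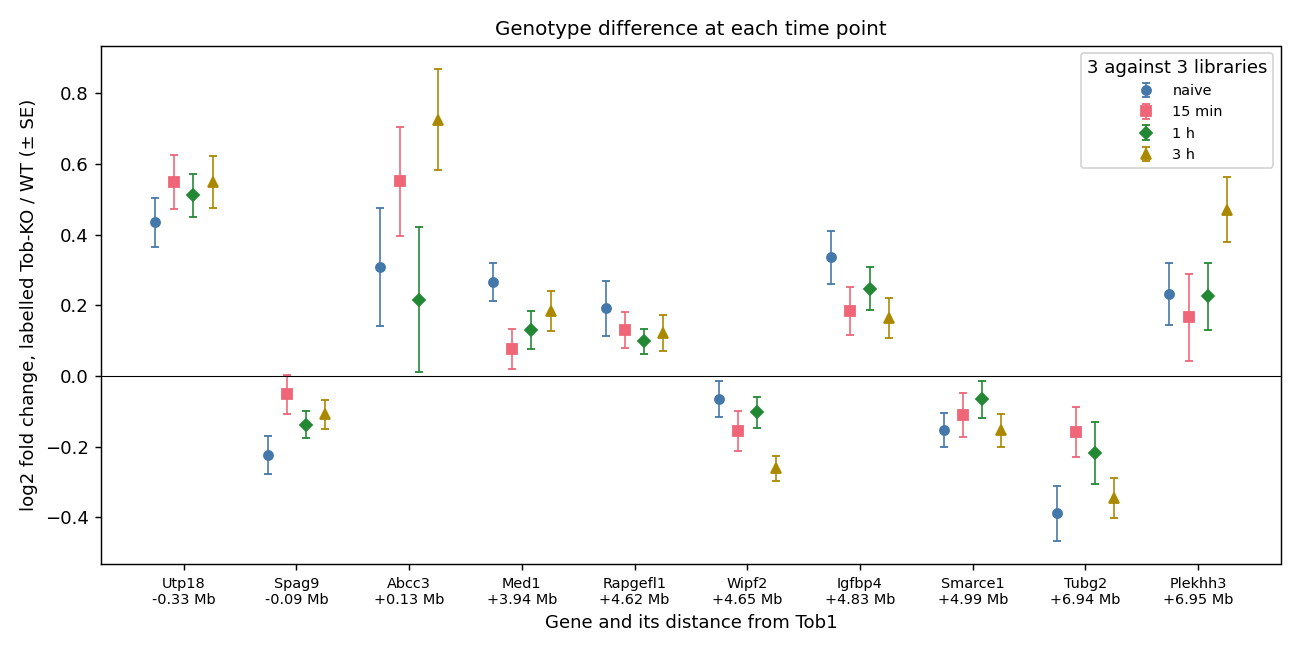
Log2 fold change with its SE (vertical axis) of each of the 10 genes in map order (horizontal axis, with distance from Tob1) at each time point, 3 against 3 libraries. All 40 points have the sign of their gene's average. Utp18 stayed between 0.43 and 0.55, and Abcc3 ranged from 0.22 to 0.73.

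Constancy differed in size rather than sign. Utp18 was the steadiest relative to its average, with log2 fold changes of 0.43 ± 0.07, 0.55 ± 0.08, 0.51 ± 0.06 and 0.55 ± 0.07 in naive mice, at 15 min, at 1 h and at 3 h. Abcc3 was the least steady in absolute terms, at 0.31 ± 0.17, 0.55 ± 0.15, 0.22 ± 0.21 and 0.73 ± 0.14. Tubg2 was at -0.39 ± 0.08 in naive mice, -0.16 ± 0.07 at 15 min, -0.22 ± 0.09 at 1 h and -0.35 ± 0.06 at 3 h. The interval between the lowest and highest value was 0.11 for Utp18, 0.23 for Tubg2 and 0.51 for Abcc3.

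Med1 was at 0.27 ± 0.05, 0.08 ± 0.06, 0.13 ± 0.05 and 0.18 ± 0.06, and Spag9 at -0.22 ± 0.05, -0.05 ± 0.06, -0.14 ± 0.04 and -0.11 ± 0.04, both farthest from 0 in naive mice. Wipf2 ran the other way, from -0.06 ± 0.05 in naive mice to -0.26 ± 0.04 at 3 h, and Plekhh3 was largest at 3 h with 0.47 ± 0.09. Igfbp4 stayed between 0.16 and 0.34, Rapgefl1 between 0.10 and 0.19, and Smarce1 between -0.15 and -0.07. The difference was largest in naive mice for 5 members and at 3 h for the other 5, and it was smallest at 15 min for 4. The median absolute log2 fold change of the 10 was 0.25, 0.16, 0.18 and 0.22 at the 4 time points, beside 0.10, 0.10, 0.08 and 0.08 for all tested genes. The spread over time points had a Spearman's rho of 0.067 with distance across the 10 genes.

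Whether the genotype difference changed with time was tested, since that interaction was not part of the choice of genes. No member passed the FDR, and 0% of the 19500 genes did, by edgeR's quasi-likelihood test over 24 libraries or by DESeq2. At an unadjusted p under 0.05 there were 797 genes (4.09%), among them Spag9 and Wipf2, which had the same adjusted p of 0.953 (edgeR). A830036E02Rik, no member, was called without the 1 h library labelled Tob-KO replicate 1. For none of the 10 members was a change of the difference over time detectable with 3 libraries per group, which does not show that it stayed constant.

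By edgeR no member was called for a change with time after fear conditioning. The groups hold no mice placed in the chamber without shock, so an effect of conditioning itself was not isolated. Over both genotypes 8.28% of tested genes changed with time at the FDR of 0.05 and none of the 10 did, although Utp18, Med1 and Wipf2 were under 0.05 before adjustment. Their adjusted p was 0.0772, 0.134 and 0.137 (edgeR quasi-likelihood test). DESeq2 called Utp18. In WT mice alone 0.195% of genes were called and no member, with none under 0.05 before adjustment. In mice labelled Tob-KO alone 0.466% were called and no member. Before adjustment 4 members were under 0.05 (Med1, Wipf2, Spag9 and Utp18), beside 16% of all genes. DESeq2, again with more calls in all, called Med1 and Spag9. Of these, Med1 was 0.22 lower and Spag9 0.15 higher on the log2 scale at 15 min than in naive mice. Tob1 itself passed, with adjusted p = 0.00515 over both genotypes and 0.0205 in mice labelled Tob-KO (edgeR quasi-likelihood test). In WT mice alone Tob1 did not pass (adjusted p = 0.590, same test).

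Other genes of the members' complexes and families were examined on lists of partners. Of 135 tested genes on 10 lists, 1 was higher (Med27, 0.17 ± 0.03, adjusted p = 0.0137) and 1 lower (Rapgef4, -0.14 ± 0.03, adjusted p = 0.0319; both edgeR quasi-likelihood test). The median log2 fold change of these genes was 0.01, beside -0.0016 for all tested genes. Before adjustment 22 (16.3%) were under 0.05, beside 13.3% of all tested genes, and DESeq2 called 3, the third being Actr3. Med27 was the only 1 of 29 other Mediator subunits to pass, and 0 of 24 BAF and PBAF subunits passed beside Smarce1. None of 17 processome components passed beside Utp18, and none of 9 gamma-tubulin ring genes beside Tubg2. Rapgef4 was 1 of 10 Rap GTPases and exchange factors. The lists of JIP scaffolds and JNK kinases (10 genes), WIP proteins and Arp2/3 (11), IGF binding and signalling (12), ABCC transporters (9) and PLEKHH relatives (4) had no call.

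Across the 24 libraries the gene most like Utp18 in log2 CPM was Tob1 (Pearson's r = 0.91), and those most like Spag9, Med1 and Tubg2 were also on this stretch, namely Krt222 (0.85), Mpp3 at 7.78 Mb (0.83) and A830036E02Rik (0.82). The genes most like the other 6 lay on other chromosomes, with Epha7 for Rapgefl1 (0.87), Uchl5 for Smarce1 (0.83), Pabpc1 for Igfbp4 (0.82), Fzd8 for Abcc3 (0.78), Snrk for Wipf2 (0.77) and Atl3 for Plekhh3 (0.74). These correlations share the libraries and the genotype difference that selected the members. Within groups, the 45 pairs of members had r from -0.56 to 0.46 with a median of 0.023.

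Tissue makeup varied between libraries. The 12 hippocampal neuron markers summed to 1168 to 1573 CPM in WT and 1253 to 1737 CPM in libraries labelled Tob-KO, with a median log2 fold change of 0.08 and Dsp highest at 0.33. None of 63 cell type markers on 6 lists was called by edgeR's quasi-likelihood test, with 11 (17.5%) under 0.05 before adjustment, beside 13.3% of all tested genes. DESeq2 called 3, the haemoglobin genes Hba-a1, Hba-a2 and Hbb-bs. All 7 blood cell markers were lower in libraries labelled Tob-KO, with a median log2 fold change of -0.51 (-0.93 to -0.42). They made up 5 of the 11 markers under 0.05 before adjustment. Choroid plexus markers summed to 41.3 to 3009 CPM in WT and 64.7 to 5110 CPM in libraries labelled Tob-KO, and the 14 genes had a median log2 fold change of 1.10. With their score as a covariate (the mean log2 CPM of the list, centred per gene) the members had log2 fold changes from -0.29 (Tubg2) to 0.51 (Utp18). All 10 still passed, but in the same libraries that selected them, so nothing is read from that count. Within groups, Pearson's r over the 24 libraries between the hippocampal neuron score and a member was 0.73 for Rapgefl1, 0.61 for Igfbp4 and -0.50 for Spag9, and -0.62 for Rapgefl1 with both the meningeal and the striatal score. It was 0.57 between the blood cell score and Plekhh3. The other members had r from -0.39 to 0.33 with the hippocampal score. Meningeal fibroblast markers summed to 126 to 310 CPM in WT and 87.9 to 341 CPM in libraries labelled Tob-KO, endothelial and mural markers to 224 to 450 and 233 to 347 CPM, striatal and septal markers to 149 to 227 and 186 to 274 CPM, and blood cell markers to 42.2 to 134 and 36.0 to 62.7 CPM. The part of these 4 lists and of the hippocampal markers in the members' differences was not tested. In bulk tissue, fewer cells of a type and less RNA per cell cannot be told apart.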

How the data were processed

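Hippocampal poly(A) RNA of 24 mice was sequenced as 150-base paired-end reads. Per the labels, the authors mapped to GRCm38 with STAR 2.6.1d and counted with HTSeq 0.9.0. They deposited raw counts per gene, not normalized. Libraries came from a directional kit, and column names show that duplicates were marked before counting. How strand was handled in counting, whether marked duplicates were counted, and which annotation release was used are not given in the sources used here. Groups and replicate numbers came from the sample labels. Totals of 28847989 to 41595972 counts limit precision for genes with few reads, and PCR reads are not independent molecules.

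Genes with at least 0.2 CPM in 2 libraries were kept. After TMM scaling, edgeR 4.0.16 (R 4.3.3) quasi-likelihood tests used 24 libraries with genotype and time, or their interaction, and p-values were adjusted over all tested genes by Benjamini-Hochberg. Single time points used the exact test of the study. SE are those of the quasi-likelihood fit. Symbols were matched to GENCODE vM21 coordinates, and 18634 tested genes (95.6%) had exactly 1. Distance is the gap between gene bodies. Named genes are the 10 members, Tob1, Tubg1, Gm11940, Krt12, A830036E02Rik, the 5 nearest genes on each side, called genes within 10 Mb, and the gene most like each member. Members, lists and named genes were chosen with earlier results of these data known. Genes adjoining a member, and list genes that were called, were named after their values were seen. The scripts were tested on simulated data.

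Alternatives were RLE scaling, no filter, DESeq2 1.42.0, a replicate block, a choroid plexus covariate and each library left out in turn. Replicates of a group differed by more than sampling noise (chi-square per degree of freedom 3.68 or more over 24 pairs).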

Additional observations from a re-analysis of the deposited data

How the results depend on the processing

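Of 663 values recomputed under an alternative, 586 stayed on the same side of their threshold or within 1.5 times. Only the members' log2 fold changes have a direction that could reverse, and none did. The 586 include values of the members, which these libraries selected, so this number is no measure of robustness. Each member kept its direction in all 30 alternatives. All 10 members passed with RLE scaling, without the filter, with DESeq2, with the replicate block and with the choroid plexus covariate. The alternatives reuse the libraries that selected the members, so their calls and directions are a description and no independent support. Rapgefl1 lost its call without KO replicate 2 in naive mice, at 15 min or at 3 h, and without WT replicate 1 at 3 h. Without the 15 min libraries, and so with fewer samples, 6 members passed, and 10 genes within 10 Mb. The log2 fold changes of the 4 that no longer passed were 0.41 (Abcc3), 0.14 (Rapgefl1), -0.14 (Wipf2) and -0.12 (Smarce1), about as large as with all libraries.

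Genes called within 10 Mb numbered 16, and 29 with DESeq2, 9 at an FDR of 0.01 and 9 within 5 Mb. Over the table, 90 genes differed between genotypes, 293 with DESeq2 and 25 without 15 min, and leaving out 1 library gave 41 (KO 3 h replicate 2) to 141 (KO 3 h replicate 1). The interaction count of 0 became 1 without the filter and 0 to 1 leaving out 1 library (KO 1 h replicate 1 gave 1), the gene being A830036E02Rik. Time over both genotypes gave 1614, 2529 with DESeq2, which called 1 member, and 0 to 1 members leaving out 1 library (Utp18 without KO 3 h replicate 2). Time in KO gave 88, 882 with DESeq2 (2 members), 317 without the filter, and 24 to 113 leaving out 1 library (lowest without KO 1 h replicate 2). Time in WT gave 37, 421 with DESeq2, 302 without the filter, and 5 to 90 leaving out 1 library (without WT 3 h replicate 2 and WT 15 min replicate 1).

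At single time points no member reached the required fold of 2, so the absence of member calls there says nothing about stability. The quasi-likelihood test called 1, 0, 0 and 1 genes in naive mice, at 15 min, at 1 h and at 3 h, against 4, 102, 6 and 5 by the exact test, and DESeq2 called 35 at 15 min. Leaving out 1 library gave 4 to 53 (highest without KO replicate 3), 30 to 252 (without WT replicate 3 and KO replicate 1), 4 to 155 (highest without WT replicate 1) and 3 to 16 (without KO replicates 3 and 1).

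The replicate numbers do not pair the libraries. In 0 of 28 pairs of groups were all 3 correlations of same-numbered deviations above 0.1. Their mean ran from -0.21 to 0.24, and 4 of 24 libraries were closest to their own number. With the replicate block 89 genes differed between genotypes over all times, 24 changed with time in KO and 20 in WT, and 1, 6, 0 and 0 differed at the single time points. The block changed no member's call. Genes with few counts, such as Abcc3 with 54 to 169 reads, limit the precision.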
